A study of Mus musculus with 4 samples.

Results

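The transcripts of glycolysis and of the hypoxia response were examined in BA/F3 cells with and without the leukemia fusion ETV6-RUNX1. The set was a list of 36 genes, chosen by name. A gene was read from the probe sets that carry its symbol alone, and the probe set with the highest mean over the 4 libraries stood for it. Of the 36 genes, 33 had such a probe set, out of 18194 genes on the array. Tests covered 27 of them, among 8892 genes tested in all, because a probe set entered the tests only when its mean log2 level was at least 4. Slc16a3, Aldoc, Ldhb, Egln3 and Adm lay below that filter, Gapdh was carried only by the array's control probe sets and was not tested, and Gpi1, Eno1 and Bnip3l were not analysed here.

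BA/F3 is an established mouse cell line that grows on interleukin 3. By title, source name and genotype, 2 libraries came from BA/F3 cells carrying an inducible human ETV6-RUNX1 (TEL-AML1) gene, with the genotype written hsa ETV6-RUNX1 +, and 2 from BA/F3 control cells, written hsa ETV6-RUNX1 -. ETV6-RUNX1 is a fusion transcription factor of childhood B-cell leukemia. Both kinds of cells received 32.5 pM mifepristone, the inducer, for 16 h, and their total RNA was labelled for a 3' expression array. The series' design text names empty vector cells as the control, and says nothing of clones. The sources used here do not state the separate origin of the replicates beyond calling them independent, so the p-values speak only of how these libraries scatter, which may be technical. The RNA is of whole cultures, so fewer cells of one kind and less RNA per cell cannot be told apart.

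The labels conflict. In the description field the replicate 1 libraries stand the other way round, the one titled ETV6-RUNX1 as control and the one titled control as TEL-AML1 expression, while both fields give the replicate 2 libraries the same condition. Every comparison was therefore made by description and by title. The libraries described as fusion-expressing are those titled control replicate 1 and ETV6-RUNX1 replicate 2, and the libraries described as control are those titled ETV6-RUNX1 replicate 1 and control replicate 2. Where values are grouped by description, replicate 1 is given before replicate 2.

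The line was checked against marker genes. All 6 genes of the interleukin 3 pathway were above the filter, and Csf2rb, the shared beta chain of the receptor, read 14.08 and 14.26 in the libraries titled ETV6-RUNX1 and 14.78 and 14.12 in those titled control. Of 13 B lineage markers on the array, 2 were above the filter, Ptprc and Cd79b, and 8 lay within 0.5 of the lowest value in all 4 libraries, among them Pax5, Ebf1, Rag1 and Il7r. All 5 T cell markers lay there too. One library stood apart on a measure of RNA and labelling: the 3' minus 5' log2 value of the transferrin receptor control probe sets was 3.87 and 4.53 in libraries described as fusion-expressing, against 1.31 and 4.38 in those described as control, the 1.31 being that of the library titled ETV6-RUNX1 replicate 1. The same library was lowest for pyruvate carboxylase, with 2.82 and 3.94 in libraries described as fusion-expressing, against 2.22 and 3.21 in those described as control. At Gapdh and beta-actin its values, -0.31 and 0.70, lay close to those of the other libraries. It also read highest for the transferrin receptor gene Tfrc itself, at 13.56, against 12.43 to 12.89 in the others. Whether the level of Tfrc plays a part in the transferrin receptor value was not tested.

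Glycolysis turns glucose into pyruvate in the cytosol and yields ATP without oxygen, and fast-growing blood cells use it also for building blocks. When oxygen is scarce, prolyl hydroxylases of the EGLN family no longer mark HIF-1alpha for destruction, and the stabilised factor binds hypoxia response elements and raises glucose transporters, glycolytic enzymes, lactate export and a set of secreted and stress proteins. MYC binds related E-box sequences at many of the same enzymes' genes, and growth factor signalling also sustains glucose uptake.

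**Figure D1:**
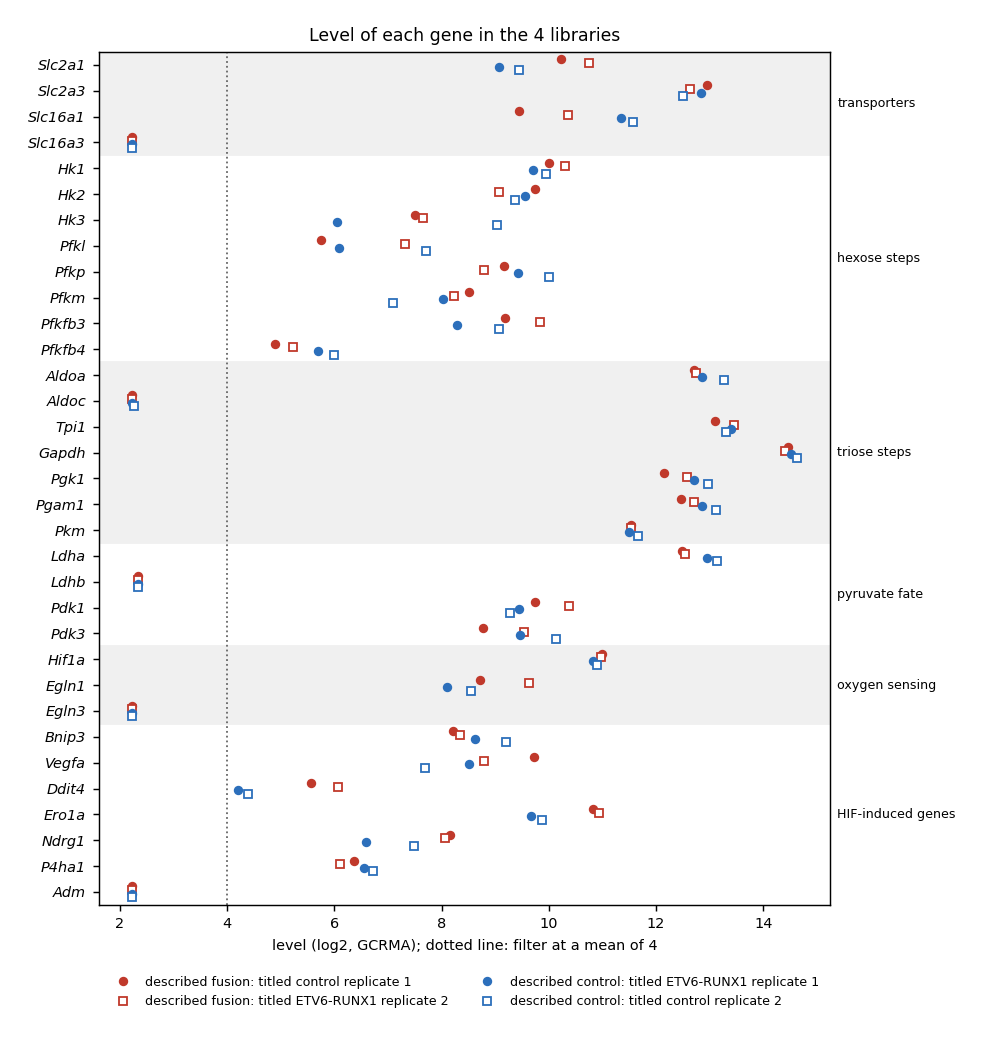
Log2 level of each of the 33 genes in each of the 4 libraries, ordered by role; red symbols are libraries described as fusion-expressing, blue symbols those described as control, circles replicate 1 and open squares replicate 2. Red and blue separate for Slc2a1, Slc16a1, Ddit4 and Ero1a, whereas Slc16a3, Aldoc, Ldhb, Egln3 and Adm lie at the floor in all 4 libraries.

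By description, Slc2a1, which imports glucose, and the hypoxia response genes Vegfa, Ddit4, Ero1a and Ndrg1 read at least 2-fold higher without overlap in the libraries called fusion-expressing, and Slc16a1, which carries lactate, read at least 2-fold lower. None of the 27 tested genes passed an adjusted p of 0.05 in limma, against 0% of all tested genes. At an unadjusted p under 0.05 there were 7, against 23.3% of all genes, so that share is near the background. Of these 4 were higher, where 13.6% of all genes were, and 3 lower, where 9.76% were. The groups did not overlap for 20 genes, against 55.8% of all genes, with 11 higher (30.3% of all) and 9 lower (25.6% of all). Without overlap between the groups and at least 2-fold apart, 5 were higher, where 6.41% of all genes were, and 1 was lower, where 3.67% were. Over the 27 genes the median difference was -0.04, with 13 above 0 (51.5% of all genes) and 14 below (48.3% of all genes), and over all tested genes it was 0.01.

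Glucose enters through Slc2a1 (GLUT1) and Slc2a3 (GLUT3), and lactate crosses the membrane through Slc16a1 (MCT1) and Slc16a3 (MCT4). Slc2a1 read 10.23 and 10.75 in the libraries described as fusion-expressing, against 9.07 and 9.44 in those described as control. Both libraries described as fusion-expressing lay above both described as control. The log2 difference was 1.23 (SE 0.27, limma adjusted p = 0.17), which is 2.35-fold. Slc2a3 read 12.94 and 12.64 in libraries described as fusion-expressing and 12.83 and 12.50 in those described as control, and the groups overlapped. Slc16a1 read 9.44 and 10.35 in libraries described as fusion-expressing, against 11.34 and 11.56 in those described as control. The groups did not overlap, and the difference was -1.55 (SE 0.36, limma adjusted p = 0.17), 2.94-fold lower. Slc16a3, the HIF-induced lactate exporter, lay at the lowest value of the array, 2.23, in all 4 libraries.

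The first steps trap and split hexose. Hexokinases phosphorylate glucose. Hk1 read 10.00 and 10.31 in libraries described as fusion-expressing, against 9.71 and 9.95 in those described as control, and Hk2 read 9.75 and 9.08 in libraries described as fusion-expressing, against 9.55 and 9.36 in those described as control. Hk1 was apart by a small margin, and Hk2 overlapped. Hk3, an isoform typical of myeloid cells, read 7.50 and 7.66 in libraries described as fusion-expressing and 6.05 and 9.04 in those described as control, so that the libraries described as control enclosed the others.

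Phosphofructokinase commits sugar to glycolysis, and its muscle, platelet and liver subunits are encoded by Pfkm, Pfkp and Pfkl. Pfkm read 8.52 and 8.24 in libraries described as fusion-expressing, against 8.03 and 7.10 in those described as control. Pfkp lay the other way, at 9.17 and 8.80 in libraries described as fusion-expressing, against 9.43 and 10.00 in those described as control. Neither overlapped, with differences of 0.82 (SE 0.39) for Pfkm and -0.73 (SE 0.28) for Pfkp. Pfkl read 5.76 and 7.31 in libraries described as fusion-expressing and 6.08 and 7.71 in those described as control, and was lower in both replicate 1 libraries than in both replicate 2 libraries.

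The bifunctional enzymes Pfkfb3 and Pfkfb4 set the level of fructose 2,6-bisphosphate, the activator of phosphofructokinase. Pfkfb3 read 9.18 and 9.83 in libraries described as fusion-expressing, against 8.29 and 9.07 in those described as control. Pfkfb4 read 4.90 and 5.23 in libraries described as fusion-expressing, against 5.70 and 6.00 in those described as control. Both were without overlap, in opposite directions. The Pfkfb4 difference was -0.79 (SE 0.23, limma adjusted p = 0.21).

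Of the 5 tested enzymes between aldolase and pyruvate kinase, 5 had a difference below 0 by description, where 48.3% of all genes did, with a median of -0.35, and 3 of them were lower without overlap, where 25.6% of all genes were. Aldoa, fructose-bisphosphate aldolase, read 12.70 and 12.74 in libraries described as fusion-expressing, against 12.85 and 13.27 in those described as control. Pgk1, the first ATP-yielding step, read 12.15 and 12.57 in libraries described as fusion-expressing, against 12.70 and 12.96 in those described as control. Pgam1, phosphoglycerate mutase, read 12.47 and 12.70 in libraries described as fusion-expressing, against 12.85 and 13.11 in those described as control. These 3 were lower in both libraries described as fusion-expressing, and the Pgam1 difference was -0.39 (SE 0.15, limma adjusted p = 0.27), 1.31-fold.

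Tpi1 and Pkm overlapped. Tpi1, triose-phosphate isomerase, read 13.10 and 13.46 in libraries described as fusion-expressing and 13.40 and 13.31 in those described as control. Pkm, pyruvate kinase, read 11.54 and 11.54 in libraries described as fusion-expressing and 11.50 and 11.66 in those described as control. Gapdh, glyceraldehyde-3-phosphate dehydrogenase, read at its brightest control probe set 14.45 and 14.41 in libraries described as fusion-expressing, against 14.52 and 14.62 in those described as control. Its difference of -0.14 was not tested. The aldolase isoform Aldoc lay at the floor, between 2.23 and 2.26.

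At the fate of pyruvate, lactate dehydrogenase A regenerates NAD+ by making lactate, and pyruvate dehydrogenase kinases keep pyruvate out of mitochondria. Ldha read 12.48 and 12.53 in libraries described as fusion-expressing, against 12.94 and 13.13 in those described as control. The groups lay apart by more than the spread within either, and the difference was -0.53 (SE 0.11, limma adjusted p = 0.16), 1.44-fold lower. Pdk1, a HIF target, read 9.75 and 10.37 in libraries described as fusion-expressing, against 9.45 and 9.27 in those described as control. Pdk3 read 8.77 and 9.54 in libraries described as fusion-expressing and 9.47 and 10.14 in those described as control, with overlap. Ldhb, the other lactate dehydrogenase subunit, read 2.34 in all 4 libraries.

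Among the oxygen sensors, Hif1a, which encodes the regulated HIF-1 subunit and is controlled mainly at the protein level, read 10.99 and 10.97 in libraries described as fusion-expressing, against 10.82 and 10.90 in those described as control. Egln1 (PHD2), the hydroxylase that marks HIF-1alpha and is itself a HIF target, read 8.72 and 9.63 in libraries described as fusion-expressing, against 8.10 and 8.54 in those described as control. Both were higher without overlap, by 0.12 (SE 0.11) and by 0.85 (SE 0.40). The second Egln1 probe set differed by 1.42 (SE 0.31, limma adjusted p = 0.17). Egln3 (PHD3), a strongly hypoxia-induced hydroxylase in many cells, read 2.23 in all 4 libraries.

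The remaining hypoxia response genes did not lie on one side. Ero1a, an oxidase that forms disulfide bonds in the endoplasmic reticulum, read 10.82 and 10.93 in libraries described as fusion-expressing, against 9.66 and 9.87 in those described as control. Its libraries fell into 2 tight pairs, and it differed by 1.11 (SE 0.15). Its limma adjusted p of 0.13 was the lowest among the 27 genes. Ddit4 (REDD1), an inhibitor of mTORC1 signalling, read 5.56 and 6.07 in libraries described as fusion-expressing, against 4.21 and 4.40 in those described as control. The difference was 1.51 (SE 0.25, limma adjusted p = 0.15), or 2.84-fold, and the values of the libraries described as control lay near the filter of 4.

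Vegfa, the angiogenic growth factor, read 9.72 and 8.80 in libraries described as fusion-expressing, against 8.52 and 7.70 in those described as control. The gap between the groups was small beside the spread within them, and the difference was 1.15 (SE 0.47, limma adjusted p = 0.31). It was 0.69 without the library titled control replicate 1 and 0.74 without that titled control replicate 2. Its second probe set differed by only 0.32 (SE 0.24). Ndrg1, a differentiation and stress response protein, read 8.16 and 8.07 in libraries described as fusion-expressing, against 6.60 and 7.49 in those described as control. The difference was 1.07 (SE 0.36, limma adjusted p = 0.24). Leaving out ETV6-RUNX1 replicate 1, by title, gave 0.63. That Ndrg1 value comes from a probe set whose name ends in _x_at, the array maker's mark for probes shared with other sequences, and the Ndrg1 probe set without such a mark differed by only 0.17 (SE 0.21).

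Bnip3, a mitophagy receptor, and P4ha1, a collagen prolyl hydroxylase subunit, lay on the other side. Bnip3 read 8.21 and 8.34 in libraries described as fusion-expressing, against 8.62 and 9.21 in those described as control, and P4ha1 read 6.36 and 6.11 in libraries described as fusion-expressing, against 6.55 and 6.73 in those described as control. Neither overlapped, with differences of -0.64 (SE 0.27) and -0.40 (SE 0.20). Adm, the peptide adrenomedullin and a common HIF target, read 2.23 in all 4 libraries. Of the 6 tested genes of this group, 4 lay at least 2-fold higher by description without overlap, where 6.41% of all genes did, and the other 2 lay lower. The median of the 6 was 1.09, with Vegfa and Ndrg1 at the probe sets that stood for them, and not at those that differed by 0.32 and 0.17.

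**Figure D2:**
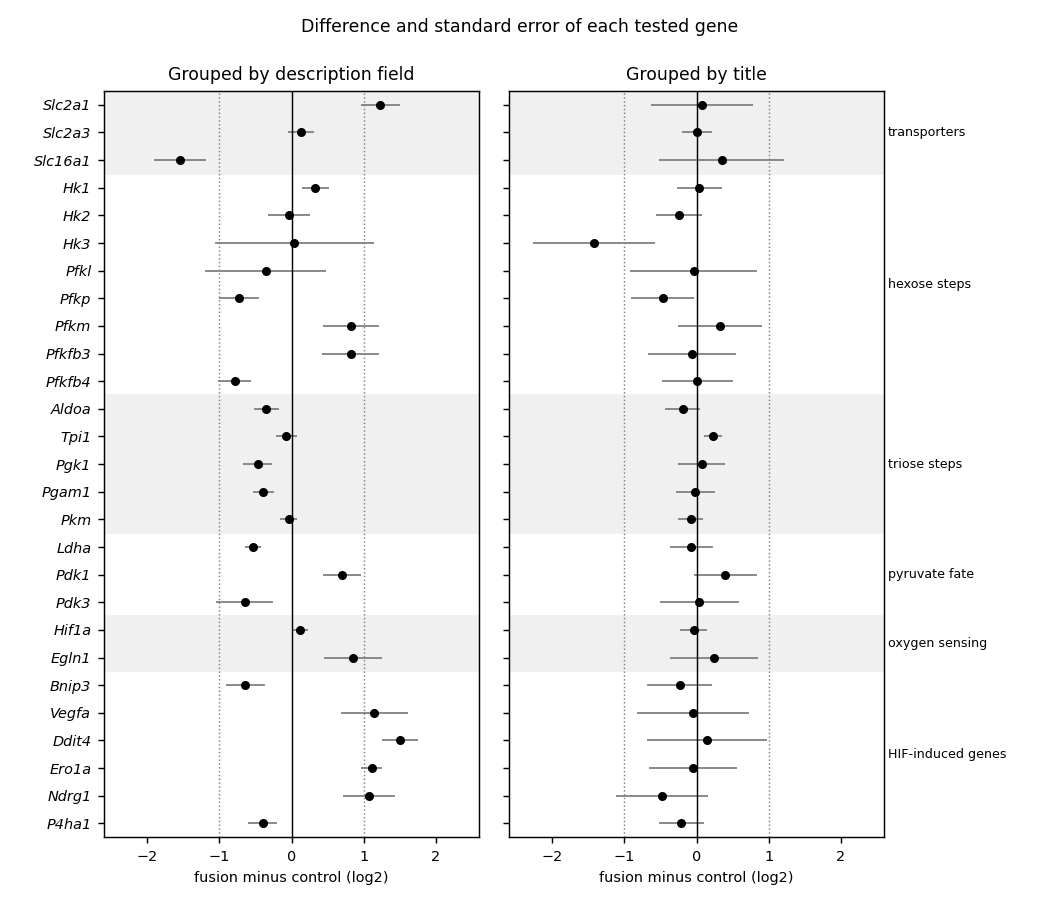
Log2 difference, fusion minus control, of each of the 27 tested genes with its limma standard error (bars), grouped by description (left) and by title (right); dotted lines mark 2-fold. By description 6 genes lie beyond 2-fold, from Slc16a1 at -1.55 to Ddit4 at 1.51, and by title only Hk3 does, at -1.42.

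The promoters of the genes that lay at least 2-fold apart by description are shown because HIF, MYC and RUNX factors each read a short motif. Promoter sequences are from RefSeq on GRCm38.p6 and hold the 250 bases before the annotated start, written 5′ to 3′ on the strand of the gene. Capitals mark ACGTG or GCGTG, the core of the hypoxia response element, CACGTG, the E-box, which contains ACGTG, and TGTGGT or TGCGGT, the RUNX motif, on either strand. Slc2a1 is taken from chr4:119108495-119108744 (plus strand), Ddit4 from chr10:59951771-59952020 (minus strand), Ero1a from chr14:45318573-45318822 (minus strand), Slc16a1 from chr3:104638414-104638663 (plus strand) and Vegfa from chr17:46032378-46032627 (minus strand). Ndrg1 had no entry.
Slc2a1: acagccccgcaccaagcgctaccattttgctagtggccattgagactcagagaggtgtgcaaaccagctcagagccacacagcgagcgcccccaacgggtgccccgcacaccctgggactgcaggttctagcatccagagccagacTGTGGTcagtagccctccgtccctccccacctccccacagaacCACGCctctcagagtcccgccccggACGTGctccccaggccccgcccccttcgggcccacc
Ddit4: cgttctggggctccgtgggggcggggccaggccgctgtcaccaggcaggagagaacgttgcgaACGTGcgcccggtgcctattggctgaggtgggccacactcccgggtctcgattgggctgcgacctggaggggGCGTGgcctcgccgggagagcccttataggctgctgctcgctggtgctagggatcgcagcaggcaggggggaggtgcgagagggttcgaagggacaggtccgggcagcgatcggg
Ero1a: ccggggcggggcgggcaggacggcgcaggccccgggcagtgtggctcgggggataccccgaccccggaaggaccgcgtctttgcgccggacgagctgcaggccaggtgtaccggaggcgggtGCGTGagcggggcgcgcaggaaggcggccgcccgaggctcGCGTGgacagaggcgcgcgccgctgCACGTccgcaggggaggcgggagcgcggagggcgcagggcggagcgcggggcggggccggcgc
Slc16a1: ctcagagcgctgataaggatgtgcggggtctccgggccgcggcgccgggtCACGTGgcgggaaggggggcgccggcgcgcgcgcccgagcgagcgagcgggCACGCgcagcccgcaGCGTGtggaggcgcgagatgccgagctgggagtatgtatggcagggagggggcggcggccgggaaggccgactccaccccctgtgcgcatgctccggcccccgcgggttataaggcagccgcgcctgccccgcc
Vegfa: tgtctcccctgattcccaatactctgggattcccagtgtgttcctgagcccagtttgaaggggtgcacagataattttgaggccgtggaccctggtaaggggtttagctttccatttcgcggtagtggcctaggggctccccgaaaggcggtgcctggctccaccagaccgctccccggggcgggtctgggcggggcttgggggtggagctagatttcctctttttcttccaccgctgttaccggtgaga

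Slc2a1, Ddit4 and Ero1a each held 1 ACGTG, at 36, 187 and 63 bases before the start, counted to the first letter. Slc16a1, which lay lower by description, held the E-box at 200 bases before the start, which reads as ACGTG on both strands. GCGTG was present in all 4 of these promoters, with 1 each in Slc2a1 and Ddit4 and 2 each in Ero1a and Slc16a1. The Vegfa window, the first listed, held none of the motifs. A second listed window, at chr17:46025164-46025413 (minus strand), held 1 ACGTG and 1 GCGTG. On the strand of the gene it lies downstream of the first listed start, so its matches are not upstream of that start. Slc2a1 held 1 TGTGGT, at 104 bases before the start, and TGCGGT was found in none of the 5. With 1 promoter per gene, the first listed, 33 of the 36 genes had a promoter sequence, and 18, or 54.5%, held ACGTG, against 16.6% of 27025 promoters and 23.5% of the 7356 promoters of tested genes. GCGTG was held by 54.5% of the promoters of the set, against 28.2% of all promoters and 48% of those of tested genes. CACGTG was held by 15.2% of the set, against 6.05% of all promoters and 8.95% of those of tested genes. TGTGGT was held by 15.2% of the set, against 14.2% of all promoters and 10.4% of those of tested genes, and TGCGGT by 0% of the set, against 5.06% and 7.93%. Of the tested genes with a difference above 0 by description 8 of 11 promoters held ACGTG, and of those below 0, 8 of 14. A match describes these letters and is no measured binding.

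By title, none of the 27 genes passed an adjusted p of 0.05 in limma, as for 0% of all tested genes, and none had an unadjusted p under 0.05, against 0.225% of all (0.0787% higher and 0.146% lower). The median difference was -0.04, over all tested genes -0.02, with 12 genes above 0 (46.2% of all) and 15 below (53.6% of all). The groups did not overlap for 2 genes, against 9.67% of all genes, with Tpi1 higher (3.96% of all) and Pkm lower (5.71% of all). None was at least 2-fold apart without overlap, where 0.0675% of all genes were higher and 0.135% lower. Of the 6 genes at least 2-fold apart by description, by title Slc2a1 lay at 0.08 (SE 0.71), Ddit4 at 0.15 (SE 0.83), Ero1a at -0.05 (SE 0.61), Vegfa at -0.05 (SE 0.78), Slc16a1 at 0.35 (SE 0.87) and Ndrg1 at -0.48 (SE 0.64). The groupings differ by the exchange of the replicate 1 libraries, so a gene with the same sign in both pairs by description has opposite signs by title, and its mean is drawn towards 0 by construction.

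The gene farthest from 0 by title was Hk3. It read 6.05 and 7.66 in the libraries titled ETV6-RUNX1, against 7.50 and 9.04 in those titled control. Each library titled ETV6-RUNX1 lay below the control of its own number, with differences of -1.45 in replicate 1 and -1.38 in replicate 2, but the groups overlapped. The difference was -1.42 (SE 0.85, limma adjusted p = 1). Leaving out 1 library moved it to -0.61 without ETV6-RUNX1 replicate 1, -0.65 without control replicate 2, -2.22 without ETV6-RUNX1 replicate 2 and -2.19 without control replicate 1. The other Hk3 probe set read 5.50 and 6.73 in libraries titled ETV6-RUNX1, against 6.89 and 8.11 in those titled control. It had no overlap and a difference of -1.38 (SE 0.68), and its name ends in _x_at, the mark for probes shared with other sequences. Differences of at least 2-fold with the same sign in both replicate pairs by title occurred in 0.18% of all tested genes, and Hk3, singled out here after its values were seen, was the 1 among the 27.

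The other genes with the smallest p by title had small differences. Tpi1 read 13.40 and 13.46 in libraries titled ETV6-RUNX1, against 13.10 and 13.31 in those titled control, a difference of 0.23 (SE 0.13). Pdk1 differed by 0.40 (SE 0.44), Pfkp by -0.47 (SE 0.44), Ndrg1 by -0.48 (SE 0.64), Hk2 by -0.24 (SE 0.32), Aldoa by -0.19 (SE 0.24) and P4ha1 by -0.21 (SE 0.31). Each of these had an adjusted p of 1 in limma.

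The replicate 2 libraries are the pair to which both fields give the same condition, and with 1 library each there is no test. In that pair, fusion minus control, 7 of the 27 genes were at least 2-fold higher, where 7.4% of all tested genes were, and 3 were at least 2-fold lower, where 4.21% were. Ddit4 differed by 1.66, Slc2a1 by 1.31, Pfkm by 1.15, Pdk1 by 1.10, Vegfa by 1.10, Egln1 by 1.09 and Ero1a by 1.06. Hk3 differed by -1.38, Slc16a1 by -1.21 and Pfkp by -1.20. In the replicate 1 pair, taken by description, 6 genes were at least 2-fold higher, where 7.48% of all genes were, and 1 was at least 2-fold lower, where 5.13% were. Ndrg1 differed by 1.56, Hk3 by 1.45, Ddit4 by 1.35, Vegfa by 1.20, Slc2a1 by 1.16, Ero1a by 1.16 and Slc16a1 by -1.90.

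Taken by description, 23 of the 27 genes had the same sign in both pairs, and 76.8% of all tested genes did. At least 2-fold with the same sign in both pairs were 5 of the 27, where 7.07% of all genes were. These were Slc2a1, Ddit4, Ero1a and Vegfa on the higher side and Slc16a1 on the lower. Both pairs are parts of the description grouping, so these counts are no separate check of it. Hk2, Hk3, Tpi1 and Pkm were the 4 genes whose sign was shared when the pairs were taken by title, against 21.8% of all genes.

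**Figure D3:**
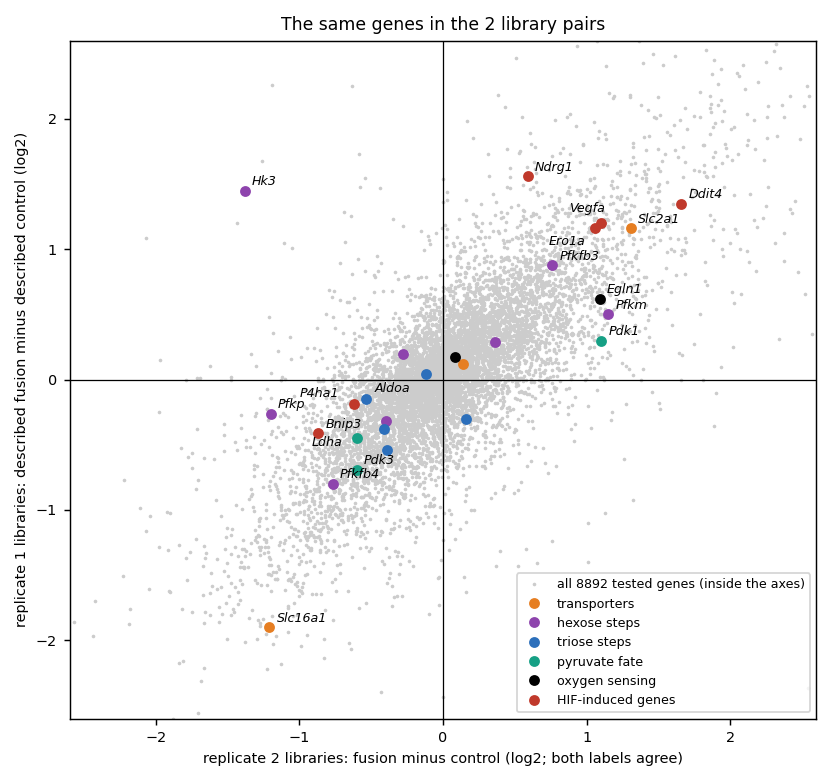
Log2 difference of each tested gene in the replicate 2 libraries (horizontal, fusion minus control) and in the replicate 1 libraries (vertical, described fusion minus described control); grey points are the tested genes and coloured points the 27 genes by role. Slc2a1, Ddit4, Ero1a and Vegfa lie at least 2-fold up on both axes and Slc16a1 at least 2-fold down, whereas Hk3 lies at -1.38 and 1.45.

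Different probe sets of a gene mostly gave the same direction by description. Of the 14 genes with several tested probe sets, 13 had all of them on one side, those of Hk3 within 0.04 of 0. The 3 probe sets of Slc2a1 differed by 1.17 to 1.23, the 3 of Ero1a by 1.11 to 1.5, the 3 of Pdk1 by 0.68 to 0.78, the 3 of Pgk1 by -0.54 to -0.47 and the 5 of Aldoa by -0.48 to -0.30. The names of all 5 Aldoa probe sets end in _x_at, as does that of the Pgk1 probe set with the highest mean. The Pgk1 probe set without such a mark differed by -0.50 (SE 0.24). Vegfa and Ndrg1 were less even, from 0.32 to 1.15 and from 0.17 to 1.12. The 2 of Hk1 lay on either side of 0, at -0.04 and 0.33. Probe sets of a gene share the same libraries and are not replicates.

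**Figure D4:**
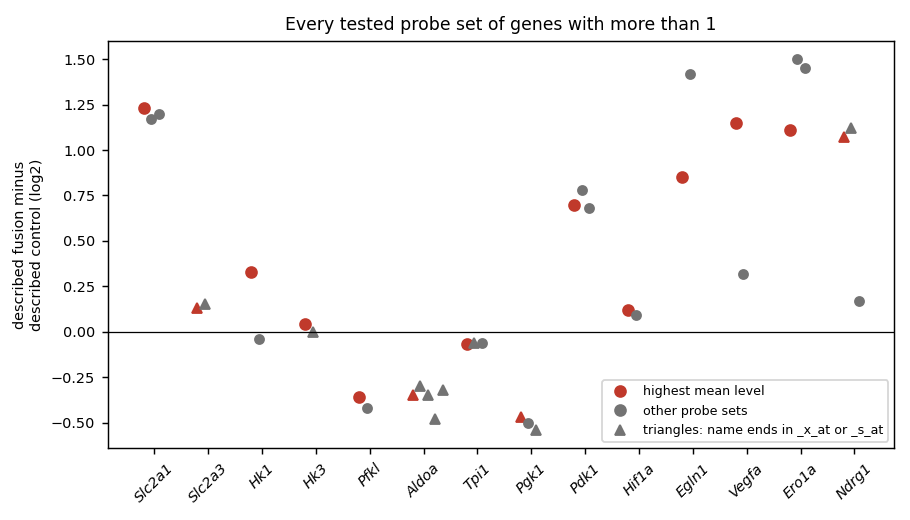
Log2 difference by description, described fusion minus described control, at every tested probe set of the 14 genes with more than 1; red marks the probe set with the highest mean, and triangles mark names ending in _x_at or _s_at. The probe sets of Slc2a1, Pdk1 and Pgk1 lie close together, and those of Vegfa and Ndrg1 are spread.

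Other genes of the same pathways were read from 2 further lists. Of 50 other genes of glycolysis, pyruvate, pentose phosphate and glycogen metabolism, 45 were on the array and 30 were tested. By description 11 lay above 0 and 19 below, with a median of -0.14 and 0 past an adjusted p of 0.05 in limma, while 4 of the 30 had an unadjusted p under 0.05, where 23.3% of all genes did and 48.3% lay below 0. Pgm1, phosphoglucomutase, read 10.96 and 10.96 in libraries described as fusion-expressing, against 10.02 and 9.74 in those described as control. The groups lay 1.07 apart (SE 0.16, limma adjusted p = 0.14). Tigar, a fructose-2,6-bisphosphatase, differed by -1.07 (SE 0.33), Dld, the lipoamide dehydrogenase of the pyruvate dehydrogenase complex, by -0.47 (SE 0.15), and Adpgk, an ADP-dependent glucokinase, by -0.60 (SE 0.20). By title 16 lay above 0, where 46.2% of all genes did, and 14 below, and 0 had an unadjusted p under 0.05, where 0.225% did.

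Of 48 other hypoxia response genes, 46 were on the array and 26 were tested. By description 17 lay above 0 and 9 below, with a median of 0.09 and 0 past an adjusted p of 0.05 in limma, while 7 of the 26 had an unadjusted p under 0.05, where 23.3% of all genes did and 51.5% lay above 0. Selenbp1, a selenium-binding protein, read 10.37 and 10.52 in libraries described as fusion-expressing, against 9.0 and 9.07 in those described as control. It was apart by 1.41 (SE 0.15, limma adjusted p = 0.12). Mif, a cytokine, read 11.19 and 11.83 in libraries described as fusion-expressing, against 12.95 and 13.29 in those described as control. Here the fusion minus control value was -1.61 (SE 0.28, limma adjusted p = 0.15). Bhlhe40, a HIF-induced repressor, differed by 1.11 (SE 0.19), and Vhl, the ubiquitin ligase subunit that recognises hydroxylated HIF, by 0.69 (SE 0.18). By title 17 lay above 0, where 46.2% of all genes did, and 9 below.

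Other measures were read along the description split, where some lay apart and others overlapped, and their part in these results was not tested. Of 16 mast cell, basophil and myeloid markers on the array 7 were tested and 4 of these were higher by description, with a median of 0.20. The 7 did not lie on one side. Fcer1a read 9.91 and 7.69 in libraries described as fusion-expressing, against 2.37 and 2.32 in those described as control, and Hdc read 8.16 and 7.84 in libraries described as fusion-expressing, against 3.70 and 5.09 in those described as control. Cd200r3 lay the other way without overlap, at 3.87 and 3.87 in libraries described as fusion-expressing, against 5.75 and 6.06 in those described as control. Mpo and Prtn3 overlapped and were highest, at 8.0 and 7.20, in the library titled control replicate 2. The list's summed linear level was 11779 and 6267 in libraries described as fusion-expressing and 6926 and 6922 in those described as control. Gata2, which makes up most of the sum, overlapped, at 13.26 and 12.44 against 12.71 and 12.60 in the same order. Kit, Elane, S100a8 and S100a9 lay at the floor throughout. All 6 interleukin 3 pathway genes had a higher mean by description, where 51.5% of all genes did, with a median of 0.58. Csf2rb, Jak2 and Stat5b did not overlap, whereas Il3ra, Csf2rb2 and Stat5a did. The summed linear level of the 6 was 46592 and 32544 in libraries described as fusion-expressing, against 30431 and 31007 in those described as control. For the dap control transcript, spiked in ahead of labelling, the 3' probe set exceeded the 5' one on the log2 scale by 3.71 and 4.43 in libraries described as fusion-expressing, against 3.10 and 3.19 in those described as control. The values of the thr and lys control transcripts also lay higher without overlap. Those of phe did not: its PheX probe sets overlapped, at 1.08 and 1.30 against 1.13 and 1.17 in the same order. Its r2-Bs-phe probe sets lay lower without overlap, at 0.48 and 0.55 against 0.56 and 0.64. The same 3' minus 5' value of Gapdh was -0.30 and -0.34 in libraries described as fusion-expressing and -0.31 and -0.37 in those described as control, and that of beta-actin was 0.64 and 0.63 in libraries described as fusion-expressing and 0.70 and 0.63 in those described as control. Without the library titled ETV6-RUNX1 replicate 1, which stood apart at the transferrin receptor, the description differences were 1.05 for Slc2a1, 1.41 for Ddit4, 1.0 for Ero1a, 1.56 for Vegfa, 0.63 for Ndrg1, -1.66 for Slc16a1 and -0.62 for Ldha. Of the 2 tested B lineage markers, Ptprc and Cd79b, both had a higher mean by description, and both overlapped. Ptprc read 13.40 and 12.55 in libraries described as fusion-expressing and 12.99 and 12.60 in those described as control. That list's summed level, most of it Ptprc, was 11350 and 6420 in libraries described as fusion-expressing and 8499 and 6676 in those described as control. The summed level of 6 fibroblast and stromal markers, 5 of them at the floor throughout, was 1813 and 1756 in libraries described as fusion-expressing, against 539 and 908 in those described as control. That of the erythroid and megakaryocyte markers was 685 and 1542 in libraries described as fusion-expressing, against 733 and 1628 in those described as control. Of its 2 tested genes, with a median of -1.06, Klf1 read 5.93 and 5.52 in libraries described as fusion-expressing, against 7.39 and 8.80 in those described as control, without overlap, and Itga2b, which makes up most of the sum, overlapped.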

How the data were processed

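RNA from 4 libraries was measured on a mouse 3' array. The deposited table holds log2 values that the authors made using GCRMA (version 2.28.0, per the submitters' processing notes). This method models background by probe sequence before normalization and summary, which compresses differences near the floor. The values lie between 2.23 and 16.3, and all 4 libraries share the lowest, which is how the log2 scale was recognised. Further steps: not given in the sources used here. The series text and titles speak of chromatin immunoprecipitation, but the protocols describe total RNA, so values were taken as RNA levels. There is no depth to give for arrays; precision is limited by their number.

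After leaving out 64 control probe sets, 17720 of 45101 probe sets had a mean of at least 4 and were tested with limma 3.58.1 in R 4.3.3 (lmFit, eBayes with trend, two-sided, Benjamini-Hochberg over all 17720, threshold 0.05), with 2 libraries per group. Over all probe sets 2 passed by description and 0 by title. Symbols came from the platform annotation. The fit was run on simulated data with independent noise and planted differences, which checks the code and not how these 4 libraries behave.

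The genes, lists and tests were chosen with earlier results of these data known. Every gene of the set is given. Statistics were given for genes at least 2-fold apart without overlap and for the 8 with the smallest p in each grouping, and for the others where a sentence needed them. From each further list the 4 genes with the smallest p by description were named. Alternatives covered filters, trend, scaling, probe set choice, a replicate block and leaving out each library.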

Additional observations from a re-analysis of the deposited data

How the results depend on the processing

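In every alternative run, 0 of the genes of the set passed the adjusted threshold in either grouping. By description, the differences of Slc2a1, Slc16a1, Ddit4, Ero1a, Vegfa, Ndrg1, Ldha, Pgam1 and Pfkfb4 kept their sign in all 115 values that 13 alternatives gave. In the fits on all 4 libraries their limma adjusted p-values ran from 0.059 to 0.95. These genes did not overlap between the groups, so leaving out 1 library could not turn a sign. The filter, trend and block settings leave each difference unchanged by construction. Most of the 115 values could therefore not have turned, and the kept signs are no separate check. The differences changed in size by over 1.5 times for Vegfa, to 0.69 and 0.74 without control replicate 1 and 2 and 0.74 with the mean of its probe sets. For Ndrg1 they did so too, to 0.63 without fusion replicate 1 and 0.17 without _x_at and _s_at probe sets. Slc2a1 was 0.97 without fusion replicate 2. Hk3 by title ran from -2.22 to -0.61 when 1 library was left out. The number of all probe sets past the threshold by description was 2, and became 14 with quantile normalization, 10 with median centring, 14 with the mean of all probe sets of a gene, and 0 without the filter, with any 1 library left out, with either block and without _x_at and _s_at probe sets. Same-numbered libraries were not stated to share a culture or day, and their deviations correlated at -0.196 by title and 0.585 by description. With the replicate number as a replicate block, the genes of the set at an unadjusted p under 0.05 were 15 by description, where 35.5% of all genes were, and 1, Hk3, by title, where 0.169% were. With crossed numbers, chosen after seeing the data, as was the removal of _x_at and _s_at probe sets, they were 5 by description (11.5% of all genes) and 0 by title (0.349%). Leaving out 1 library at a time, named by title, gave a median difference of -0.04 to 0.11 by description, highest without control replicate 1 and at 0.04 without control replicate 2. The genes at least 2-fold lower without overlap by description then numbered 1 to 4, with 4 without fusion replicate 1 and 3 without fusion replicate 2. By title, 0 to 2 were at least 2-fold higher (2 without fusion replicate 1, 1 without either control) and 0 to 2 at least 2-fold lower (2 without fusion replicate 2 or control replicate 1, 1 without control replicate 2), and 0 to 1 had an unadjusted p under 0.05, Pfkm without control replicate 1. By title the sign turned for Ndrg1 without fusion replicate 1 (-1.22 to 0.25), for Pdk1 (-0.06 to 0.86) and P4ha1 (-0.44 to 0.01) without fusion replicate 2, and for Aldoa without control replicate 2 (-0.48 to 0.10). The cause was not tested, except that fewer libraries enter each such fit. A lone library left in a group is assumed to vary like the other group.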
